A study of Homo sapiens with 4 samples.

Results

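The transcripts of 40 genes of homologous recombination, the Fanconi anaemia pathway and mismatch repair were compared between H1792 cells kept with ACBI1 and with the solvent DMSO. The genes were chosen by symbol from a list of repair genes, with earlier results of these data known. All 40 were found among the 61228 features of the count files. Of the features, 19159 passed the filter on low counts, and all 40 genes were among them, with 107 to 13333 counts per library. H1792 is an established human lung cancer line, listed as genotype WT in both groups. ACBI1 is a PROTAC that directs SMARCA2, SMARCA4 and PBRM1, proteins of the SWI/SNF chromatin remodelling complexes, to the VHL ubiquitin ligase. Both groups were treated for 96 h, with DMSO alone or with ACBI1 at a labelled dose of 1 mM, and each held 2 libraries of total RNA from this 1 line. The libraries held 85037263 and 73238474 gene counts with DMSO (replicate 1, then 2) and 86010100 and 64281850 with ACBI1. The labels do not say that replicates were separate cultures, so p-values measure only the spread between these libraries.

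Homologous recombination repairs broken DNA by copying an intact sister chromatid: ends are resected to single strands, a recombinase filament is loaded on them, and the filament invades the sister. The Fanconi anaemia proteins detect crosslinks between DNA strands at stalled replication forks and hand the resulting breaks to recombination, and mismatch repair removes errors left by the replicative polymerases. Many of these genes are transcribed mainly in late G1 and S phase, when a sister is present or being made, and several are known targets of E2F transcription factors.

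Transcripts of 21 of the 40 genes rose with ACBI1, by a log2 change of 0.59 (ATR) to 1.78 (XRCC2), and in 13 of them the fitted change was at least 2-fold. These 21 are 52.5% of the list, beside 6.75% of all tested genes called higher. A log2 change of at least 1 was seen in 14 of the 40 genes, beside 8.48% of tested genes. The median log2 change was 1.22 over the called members and 1.15 over all genes called higher. The list was chosen with earlier results of these data known, and these differences were not tested. Calls needed an adjusted p under 0.05 in edgeR's quasi-likelihood test, with Benjamini-Hochberg adjustment over all tested genes. No member was called lower by edgeR (10.6% of all tested genes were), none was lower at an unadjusted p under 0.05, and DESeq2 and limma-voom likewise called 0 lower. The median log2 change over the 40 genes was 0.92, beside 0.01 over all tested genes, and 39 of the 40 changes were positive, beside 50.4% over all tested genes. Both ACBI1 libraries lay above both DMSO libraries in 34 genes (31.1% of tested genes) and below them in 1, ATM (32.2% of tested genes); 63.2% of tested genes showed no overlap in either direction. Of the 19 genes not called, 9 had an unadjusted p under 0.05. With the called genes included, 30 of the 40 genes had one, beside 6490 of the 19159 tested genes.

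**Figure D1:**
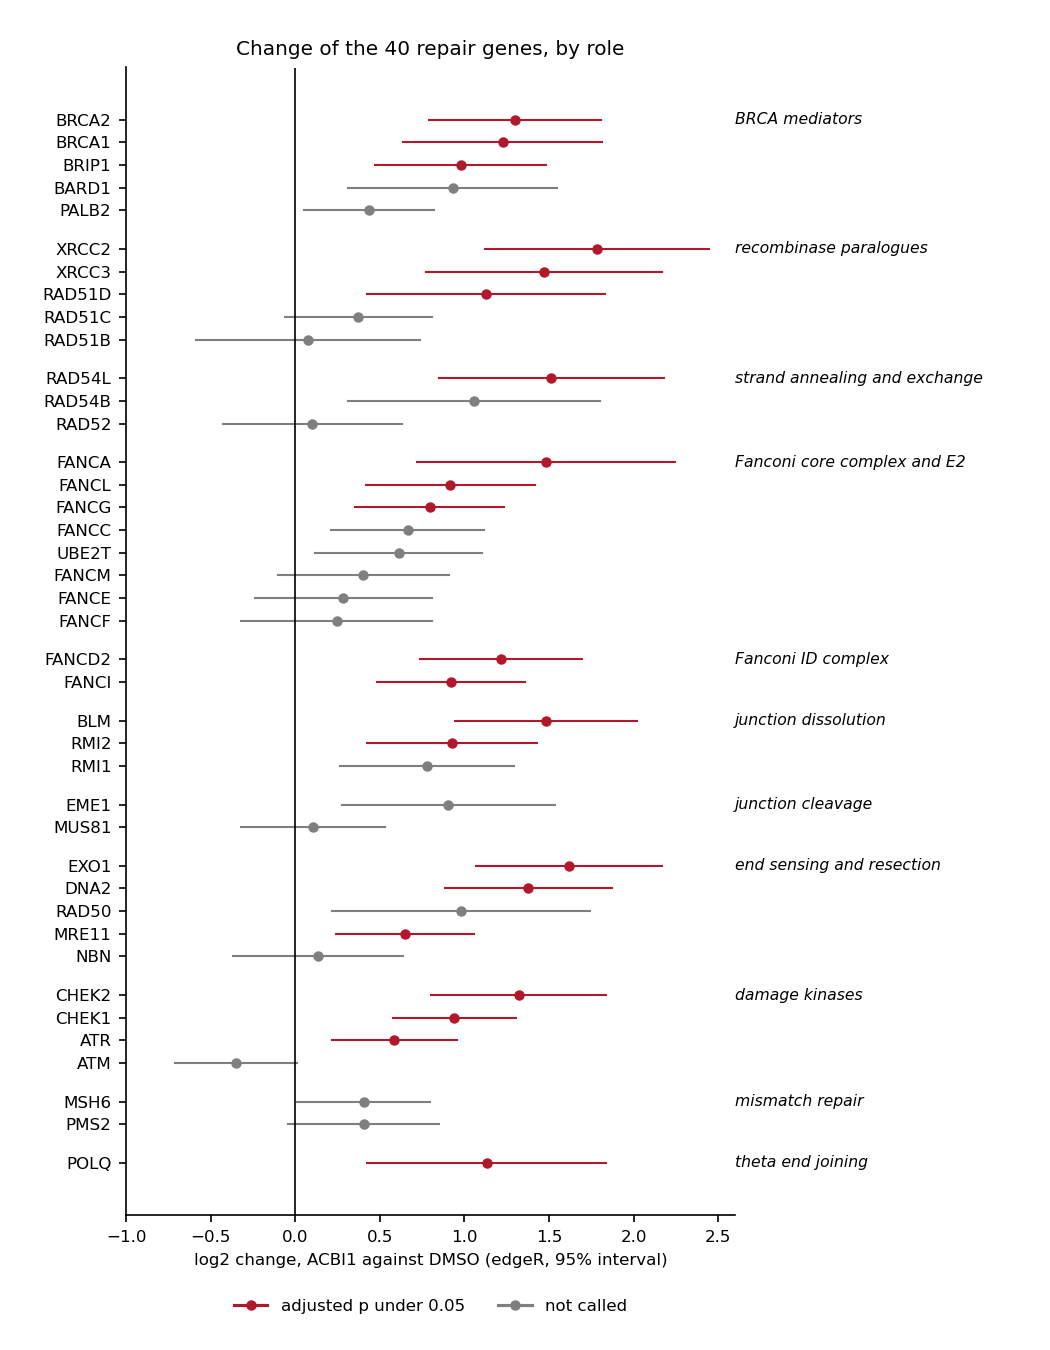
Log2 change (x axis, ACBI1 against DMSO, points) with its 95% interval (lines) for each of the 40 genes, grouped by role; red marks an adjusted p under 0.05. All 21 red points lie between 0.59 and 1.78, and ATM alone lies below 0.

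The summed level of the 40 genes, in counts per 1000000 (CPM) after TMM scaling, was 1004 and 840.2 CPM with DMSO and 1518 and 1565 CPM with ACBI1. Replicate 2 of the DMSO group was below replicate 1 in 34 of the 40 genes, so the controls differed among themselves in the same direction for most members. The S-phase genes moved with them. This list of 22 genes held replication and licensing genes such as MCM3, nucleotide supply genes such as TYMS, the transcription factor gene E2F1 and the cyclin gene CCNE2. The sum of the 22 genes was 920.4 and 706 CPM with DMSO and 2108 and 2168 CPM with ACBI1. Of these, 19 (86.4%) were called, each higher, with a median log2 change of 1.25. Of 18 mitotic genes, 5 (27.8%) were called, each higher, with a median of 0.60. Over all tested genes 6.75% were called higher. The ratio of the members' sum to the S-phase sum went from 1.09 and 1.19 in the DMSO libraries to 0.720 and 0.722 in the ACBI1 libraries, where it was lower in both. The ratio to the mitotic sum was 0.777 and 0.671 with DMSO and 0.878 and 0.749 with ACBI1, with overlapping groups. In bulk RNA, a larger share of cells in S phase and more RNA of a gene per cell cannot be told apart, and the part of the cell cycle in the members' changes was not tested.

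The degrader's own target genes and markers of cell identity were read in the same fit. The fitted values were log2 change 0.70, adjusted p 0.0583 for SMARCA4, log2 change -0.40, adjusted p 0.163 for SMARCA2 and log2 change 0.10, adjusted p 0.734 for PBRM1. In edgeR none of the 3 was called, but SMARCA4 was called higher in 6 of 9 alternatives on all 4 libraries (adjusted p 0.00834 to 0.0571), with 0.0202 in DESeq2 and 0.0491 in limma-voom. SMARCA2 and PBRM1 were called in 0 of the 9. These transcript values say nothing of the proteins. Of 10 epithelial genes 6 could be tested and summed to 982 and 1035 CPM with DMSO and 323 and 202 CPM with ACBI1, with 4 called lower, KRT7, KRT8 and KRT19 among them. EPCAM went the other way without passing, at 438 and 200 counts with DMSO and 1393 and 317 with ACBI1 (log2 change 1.32, adjusted p 0.179), and CDH1 had at most 16 counts in a library. The lung gene NKX2-1 was at 0 counts throughout; a count of 0 allows a level of up to 0.0349 to 0.0467 CPM, depending on the library and for counting error only. Of the leukocyte markers reported here, CD3E had 0 counts in each library, PTPRC at most 2 and LYZ at most 6. CD14, the only leukocyte marker that passed the filter, had 17 and 47 counts with DMSO and 10 and 15 with ACBI1 (log2 change -1.35, adjusted p 0.237). Endothelial and fibroblast genes, of which 5 of 6 were tested, summed to 33.7 and 107 CPM with DMSO and 8.78 and 11.8 CPM with ACBI1, with 4 called lower, PECAM1, VWF and DCN among them. PECAM1 had 997 and 3461 counts with DMSO and 1 and 3 with ACBI1, so the DMSO libraries also differed from each other. The defining endothelial gene CDH5 had at most 4 counts in a library. The called identity genes fell while the called repair genes rose, and their part in the repair genes' changes was not tested.

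The proximal promoters of 8 members are shown, since most of the members moved together and E2F factors are known regulators of such genes. They are the 7 called genes BRCA1, BRCA2, XRCC2, RAD54L, FANCD2, BLM and POLQ, which cover the steps from filament loading to joint dissolution and back-up end joining, and ATM, the 1 member with a negative change. Each stretch runs 5′ to 3′ in the direction of its gene, from 120 bases before to 30 bases after a RefSeq start (GRCh38.p14, the build of the hg38 counts). Capitals mark E2F core letters, which here means the run TTCCCGC, the variant run TTCGCGC, the variant run TTGCCGC or the variant run TTGGCGC, on either strand. On the plus strand lie BRCA2 (chr13:32315388-32315537), RAD54L (chr1:46247568-46247717), FANCD2 (chr3:10026317-10026466), BLM (chr15:90717226-90717375) and ATM (chr11:108222947-108223096), and on the minus strand BRCA1 (chr17:43125335-43125484), XRCC2 (chr7:152676112-152676261) and POLQ (chr3:121545959-121546108).
BRCA1: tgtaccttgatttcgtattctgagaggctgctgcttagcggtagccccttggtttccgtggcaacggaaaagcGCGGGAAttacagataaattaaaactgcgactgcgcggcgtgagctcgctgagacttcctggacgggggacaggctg
BRCA2: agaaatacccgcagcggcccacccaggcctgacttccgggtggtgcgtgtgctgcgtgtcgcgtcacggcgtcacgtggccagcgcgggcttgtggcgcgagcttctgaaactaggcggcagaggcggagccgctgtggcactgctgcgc
XRCC2: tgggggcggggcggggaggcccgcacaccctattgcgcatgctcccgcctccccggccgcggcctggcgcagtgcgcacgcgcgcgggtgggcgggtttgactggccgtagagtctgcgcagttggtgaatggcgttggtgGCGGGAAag
RAD54L: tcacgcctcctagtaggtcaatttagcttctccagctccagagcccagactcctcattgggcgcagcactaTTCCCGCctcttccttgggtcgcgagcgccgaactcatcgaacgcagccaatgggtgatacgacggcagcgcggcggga
FANCD2: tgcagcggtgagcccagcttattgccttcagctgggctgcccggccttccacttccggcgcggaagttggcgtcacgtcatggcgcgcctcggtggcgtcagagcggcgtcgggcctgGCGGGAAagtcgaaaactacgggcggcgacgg
BLM: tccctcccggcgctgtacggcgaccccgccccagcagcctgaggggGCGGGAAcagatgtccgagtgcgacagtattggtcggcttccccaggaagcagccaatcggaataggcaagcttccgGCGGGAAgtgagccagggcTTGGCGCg
POLQ: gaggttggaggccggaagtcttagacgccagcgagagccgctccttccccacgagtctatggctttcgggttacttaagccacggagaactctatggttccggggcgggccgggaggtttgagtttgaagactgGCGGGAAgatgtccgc
ATM: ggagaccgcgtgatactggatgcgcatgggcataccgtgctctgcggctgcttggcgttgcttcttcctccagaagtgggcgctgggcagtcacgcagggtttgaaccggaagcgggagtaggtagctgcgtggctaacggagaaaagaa

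In these stretches BLM held 3 E2F cores, BRCA1, XRCC2, RAD54L, FANCD2 and POLQ held 1 each, and BRCA2 and ATM held none. Over the whole windows of the table, 250 bases before to 50 after the start, 35 members had a sequence, and 21 of them (60.0%) held at least 1 core. The same was found in 13.1% of 27305 genes in the table and in 19.9% of the 12359 tested genes in it, and in 26.4% of those called higher. Among the members, 12 of 18 called genes and 9 of 17 other genes held a core. The called genes without a core were BRCA2, which is shown, and MRE11, EXO1, ATR, CHEK1 and CHEK2, which are not. The other genes with a core, none of them shown, were BARD1, RAD52, FANCC, FANCE, FANCF, RMI1, EME1, MSH6 and PMS2. The stretches shown are therefore not an even sample of the members and cannot show whether cores go with the rise. Some starts had little support. Of the annotated transcripts, 2 of 7 began within 100 bases of the ATM start used, 1 of 8 for CHEK1 and 0 of 5 for RAD51B. A core at another start of these genes would be missed. The median log2 change was 0.93 over the 21 members with a core and 0.60 over the 14 without. For the other motifs searched the order was the opposite. It was 0.65 over the 17 members with CCAAT and 0.91 over the 18 without, and 0.66 over the 5 with a CHR element and 0.91 over the 30 without. None of these differences was tested. Among the other lists, a core was in 16 of 18 windows of S-phase genes, 7 of 17 of nucleotide excision repair, 6 of 15 of base excision repair, 9 of 32 of the other recombination and Fanconi genes and 3 of 12 of end joining. The CHR element of mitotic genes (TTTGAA or TTCGAA) was in 5 of 35 members, or 14.3%, beside 11.4% of tested genes, and CCAAT was in 17, or 48.6%, beside 36.5%. Matches to different motifs were counted separately even where they overlapped. A match is a description of letters, not of binding.

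Starting with the mediators, BRCA1 and BARD1 form the ubiquitin ligase that acts in end resection and filament loading, PALB2 links BRCA1 to BRCA2, BRCA2 loads the recombinase, and BRIP1 is a helicase bound by BRCA1. BRCA2 was at 12.0 and 9.74 CPM in the DMSO libraries (replicate 1, then 2) and 24.5 and 29.1 CPM in the ACBI1 libraries (log2 change 1.30, SE 0.21, adjusted p 0.0130). BRCA1 was at 16.6 and 10.9 CPM with DMSO and 31.3 and 33.2 CPM with ACBI1 (log2 change 1.23, SE 0.24, adjusted p 0.0231). BRIP1 was at 13.5 and 10.8 CPM with DMSO and 25.6 and 22.3 CPM with ACBI1 (log2 change 0.98, SE 0.21, adjusted p 0.0278). In all 3 genes both ACBI1 libraries lay above both DMSO libraries, and in BRCA1 the DMSO libraries were the further apart of the groups. BARD1, at 9.59 and 7.03 CPM with DMSO and 17.5 and 14.2 CPM with ACBI1, did not pass (log2 change 0.93, adjusted p 0.0543), although 6 of 9 alternatives on all 4 libraries called it, with adjusted p from 0.00757 to 0.0523. The smallest change of the group was that of PALB2, with a log2 change of 0.44 (adjusted p 0.113). The DMSO and ACBI1 libraries did not overlap in any of the 5 genes, as in 63.2% of all tested genes.

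Of the 5 recombinase paralogues, which stabilise the filament, 3 were called higher. XRCC2 had the largest change of the 40 genes, at 16.4 and 10.1 CPM in the DMSO libraries (replicate 1, then 2) and 40.5 and 50.7 CPM in the ACBI1 libraries (log2 change 1.78, SE 0.27, adjusted p 0.0114). XRCC3 was at 16.2 and 11.9 CPM with DMSO and 29.8 and 48.0 CPM with ACBI1 (log2 change 1.47, SE 0.29, adjusted p 0.0225). RAD51D, the partner of XRCC2 in the BCDX2 complex, was at 9.27 and 7.17 CPM with DMSO and 21.9 and 14.1 CPM with ACBI1 (log2 change 1.13, SE 0.29, adjusted p 0.0459). The ACBI1 libraries of XRCC3 and RAD51D stood well apart from each other, with replicate 2 the higher for XRCC3 and replicate 1 the higher for RAD51D, yet neither reached down to the DMSO libraries. RAD51B and RAD51C, the other members of BCDX2, were not called. RAD51B was at 4.63 and 5.95 CPM with DMSO and 5.69 and 5.48 CPM with ACBI1, with overlapping groups and a log2 change of 0.08 (95% interval -0.58 to 0.74). RAD51C had a log2 change of 0.37 (95% interval -0.06 to 0.81). Exons of KLC1, on the opposite strand, cover 76.7% of the exonic length of XRCC3, and KLC1 itself had a log2 change of -0.31, and without a stated strand setting the reads of the pair cannot be told apart there.

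Of the genes that act on the filament or on single strands, RAD54L encodes a motor that drives strand exchange, RAD54B its relative, and RAD52 an annealing protein. RAD54L was at 15.2 and 9.05 CPM with DMSO and 33.7 and 35.8 CPM with ACBI1 (log2 change 1.51, SE 0.27, adjusted p 0.0181), with both ACBI1 libraries above both DMSO libraries. RAD54B was at 1.65 and 1.49 CPM with DMSO and 3.37 and 3.14 CPM with ACBI1 and did not pass (log2 change 1.06, adjusted p 0.0639), though its groups did not overlap and its interval ran from 0.31 to 1.80. No overlap was seen in 63.2% of all tested genes. RAD54B shares 59.1% of its exonic length with FSBP on the same strand, so reads there can be dropped as ambiguous. RAD52 was at 10.2 and 9.15 CPM with DMSO and 10.7 and 10.1 CPM with ACBI1, with overlapping groups and a log2 change of 0.10 (95% interval -0.43 to 0.63). Exons of LRRC41 on the other strand cover 25.1% of RAD54L, and LRRC41 had a log2 change of -0.37 (adjusted p 0.137).

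**Figure D2:**
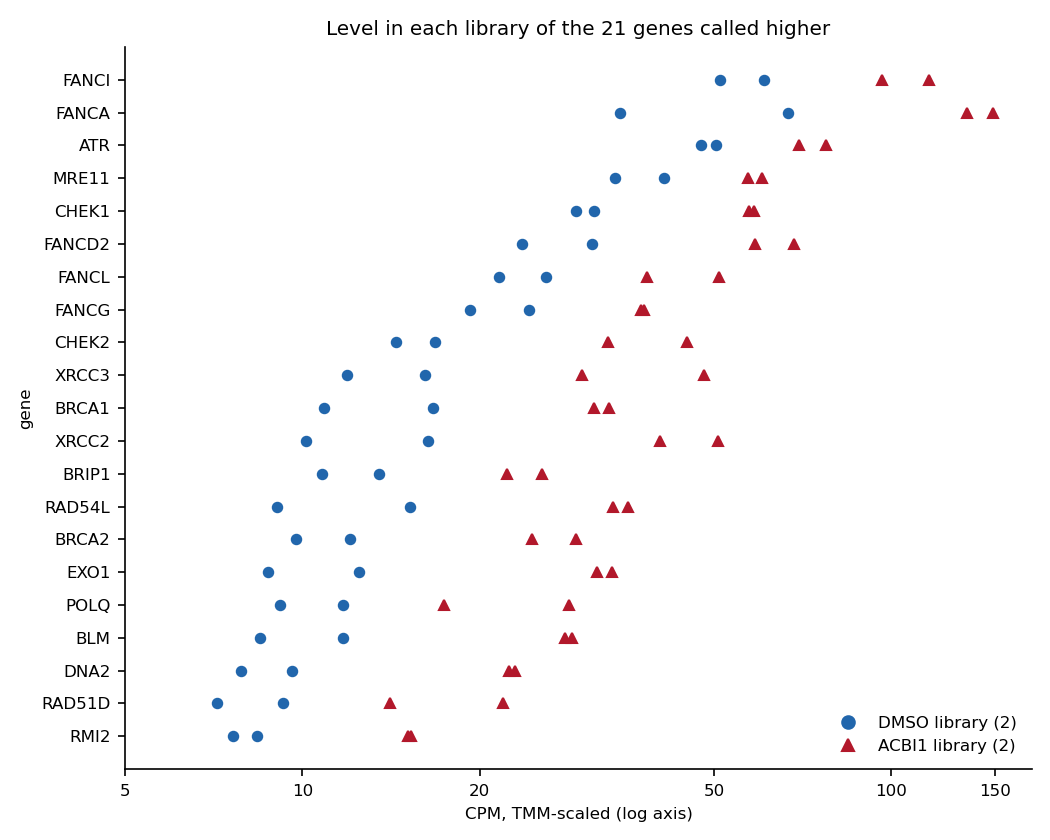
CPM after TMM scaling (x axis, log scale) in each DMSO library (blue circles) and each ACBI1 library (red triangles) for the 21 genes called higher, ordered by DMSO mean. In every row both triangles lie to the right of both circles, and the 2 circles of FANCA, at 66.7 and 34.6 CPM, are widely spaced.

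The Fanconi core complex joins ubiquitin to FANCD2 and FANCI with the E2 enzyme UBE2T, FANCL being the ligase and FANCM the subunit that anchors the complex on DNA. FANCA was at 66.7 and 34.6 CPM in the DMSO libraries (replicate 1, then 2) and 149 and 134 CPM in the ACBI1 libraries (log2 change 1.48, SE 0.31, adjusted p 0.0278). Its DMSO libraries lay far apart, and the log2 change was 1.08 without DMSO replicate 2 and 2.04 without DMSO replicate 1. FANCL was at 25.9 and 21.6 CPM with DMSO and 51.0 and 38.5 CPM with ACBI1 (log2 change 0.92, SE 0.21, adjusted p 0.0321). FANCG was at 24.3 and 19.3 CPM with DMSO and 37.5 and 38.0 CPM with ACBI1 (log2 change 0.80, SE 0.18, adjusted p 0.0334). For these 3 genes the groups did not overlap, as in 63.2% of all tested genes. FANCC (log2 change 0.66, adjusted p 0.0585) and UBE2T (log2 change 0.61, adjusted p 0.0909) were not called. Of 9 alternatives on all 4 libraries, 4 called FANCC and 0 called UBE2T. FANCM (0.40), FANCE (0.28) and FANCF (0.24) had smaller log2 changes whose intervals include 0. Exons of ZNF276 cover 23.6% of FANCA and those of VRK2 with a further gene 19.7% of FANCL, on the opposite strand, and neither ZNF276 nor VRK2 was called.

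Both genes of the clamp that the core complex modifies rose. FANCD2 was at 31.1 and 23.6 CPM with DMSO and 58.6 and 68.4 CPM with ACBI1 (log2 change 1.22, SE 0.20, adjusted p 0.0134). FANCI was at 60.9 and 51.1 CPM with DMSO and 96.3 and 116 CPM with ACBI1 (log2 change 0.92, SE 0.18, adjusted p 0.0227). The groups were apart in both, as in 63.2% of all tested genes. Per kilobase of exonic length, the ratio of FANCD2 to FANCI was 0.473 and 0.428 with DMSO and 0.564 and 0.547 with ACBI1.

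Crossed DNA strands left by recombination are dissolved by the helicase BLM with RMI1 and RMI2 or cut by nucleases such as MUS81 with EME1. BLM was at 11.7 and 8.48 CPM with DMSO and 28.7 and 27.9 CPM with ACBI1 (log2 change 1.48, SE 0.22, adjusted p 0.0108). RMI2 was at 7.63 and 8.37 CPM with DMSO and 15.1 and 15.3 CPM with ACBI1 (log2 change 0.93, SE 0.21, adjusted p 0.0317). The replicates of each group lay close together in RMI2 and the 2 ACBI1 libraries of BLM were nearly equal. Neither RMI1 (log2 change 0.78, adjusted p 0.0531) nor EME1 (log2 change 0.91, adjusted p 0.0611) passed. Of 9 alternatives on all 4 libraries, 5 called RMI1 and 3 called EME1. MUS81, the catalytic partner of EME1, was at 47.3 and 40.1 CPM with DMSO and 43.0 and 51.0 CPM with ACBI1. Its groups overlapped, with a log2 change of 0.11 (95% interval -0.32 to 0.53). On the opposite strand, exons of CFL1 and EFEMP2 cover 14.1% of MUS81 and those of LRRC59 16.4% of EME1. None of these overlapping genes was called.

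Broken ends are sensed by MRE11, RAD50 and NBN and resected further by the nucleases EXO1 and DNA2. EXO1, which also removes the nicked strand in mismatch repair, was at 12.5 and 8.76 CPM in the DMSO libraries (replicate 1, then 2) and 33.6 and 31.6 CPM in the ACBI1 libraries (log2 change 1.62, SE 0.23, adjusted p 0.00917). It had the lowest adjusted p of the 40 genes and was the only member that passed a threshold of 0.01. DNA2 was at 9.59 and 7.88 CPM with DMSO and 23.0 and 22.4 CPM with ACBI1 (log2 change 1.38, SE 0.20, adjusted p 0.0105). In both nucleases the ACBI1 libraries were close together and far above the DMSO libraries. MRE11 was at 41.0 and 33.9 CPM with DMSO and 60.3 and 57.2 CPM with ACBI1 (log2 change 0.65, SE 0.17, adjusted p 0.0467). NBN was at 77.8 and 59.1 CPM with DMSO and 83.9 and 66.4 CPM with ACBI1, with overlapping groups and a log2 change of 0.13 (95% interval -0.37 to 0.64). RAD50 had a log2 change of 0.98 that did not pass (adjusted p 0.0830), and 79.7% of its exonic length is shared with other annotated genes on the same strand, so reads there can be dropped as ambiguous and its level is uncertain.

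Of the damage kinases, ATM responds to broken ends and ATR to single-stranded DNA at forks, and they activate CHEK2 and CHEK1 respectively. CHEK2 was at 14.4 and 16.8 CPM with DMSO and 33.0 and 45.0 CPM with ACBI1 (log2 change 1.32, SE 0.21, adjusted p 0.0133). CHEK1 was at 29.1 and 31.2 CPM with DMSO and 58.5 and 57.4 CPM with ACBI1 (log2 change 0.94, SE 0.15, adjusted p 0.0128). ATR was at 50.4 and 47.5 CPM with DMSO and 69.6 and 77.4 CPM with ACBI1 (log2 change 0.59, adjusted p 0.0480). All 3 had both ACBI1 libraries above both DMSO libraries, as had 31.1% of all tested genes (32.2% had both below). Exons of another gene on the opposite strand cover 16.4% of ATR. ATM was at 94.3 and 92.9 CPM with DMSO and 71.2 and 75.7 CPM with ACBI1, lower in both ACBI1 libraries than in both DMSO libraries, but the change did not pass (log2 change -0.35, adjusted p 0.156, 95% interval -0.71 to 0.01). The ratio of ATR to ATM per kilobase of exonic length, which no scaling between libraries alters, was 1.03 and 0.980 with DMSO and 1.88 and 1.96 with ACBI1.

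In mismatch repair, MSH6 belongs to the complex that recognises mispaired bases and PMS2 to the complex that nicks the new strand. MSH6 was at 49.4 and 42.4 CPM with DMSO and 63.5 and 58.1 CPM with ACBI1 (log2 change 0.41, adjusted p 0.138), and PMS2 had a log2 change of 0.40 (adjusted p 0.182). The libraries of the 2 groups did not overlap in either gene, as in 63.2% of all tested genes, but neither change passed. Exons of FBXO11 on the opposite strand cover 16.2% of MSH6, and FBXO11 was not called. PMS2 has near-identical copies: 7 named ones were tested, with log2 changes from -0.23 to 1.20, of which edgeR, DESeq2 and limma-voom called 0 and 2 had an unadjusted p under 0.05, so its reads may be split or dropped. POLQ encodes the polymerase of theta-mediated end joining, a route that joins resected ends without a sister. It was at 11.7 and 9.15 CPM with DMSO and 17.4 and 28.3 CPM with ACBI1 (log2 change 1.13, SE 0.29, adjusted p 0.0467), with replicate 2 the higher of the ACBI1 libraries.

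Transcript ratios within a library do not depend on scaling between libraries. The pairs below were chosen after their values were seen, and 10 ratios between genes were computed. With 2 libraries against 2, no ratio can go below an exact two-sided permutation p of 0.333, so they are given without a test. The ratio of EXO1 to NBN was 0.238 and 0.220 with DMSO and 0.595 and 0.708 with ACBI1. For RAD54L over RAD52 it was 1.95 and 1.29 with DMSO and 4.10 and 4.64 with ACBI1, and for BLM over MUS81 it was 0.204 and 0.174 with DMSO and 0.547 and 0.448 with ACBI1. The groups did not overlap in these pairs, with ACBI1 means 2.84, 2.70 and 2.64 times the DMSO means. XRCC2 over RAD51B went from 5.44 and 2.62 with DMSO to 11.0 and 14.3 with ACBI1, the widest relative shift of the 10. The ratio of FANCD2 to FANCI, both called higher, moved by 1.23 times.

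**Figure D3:**
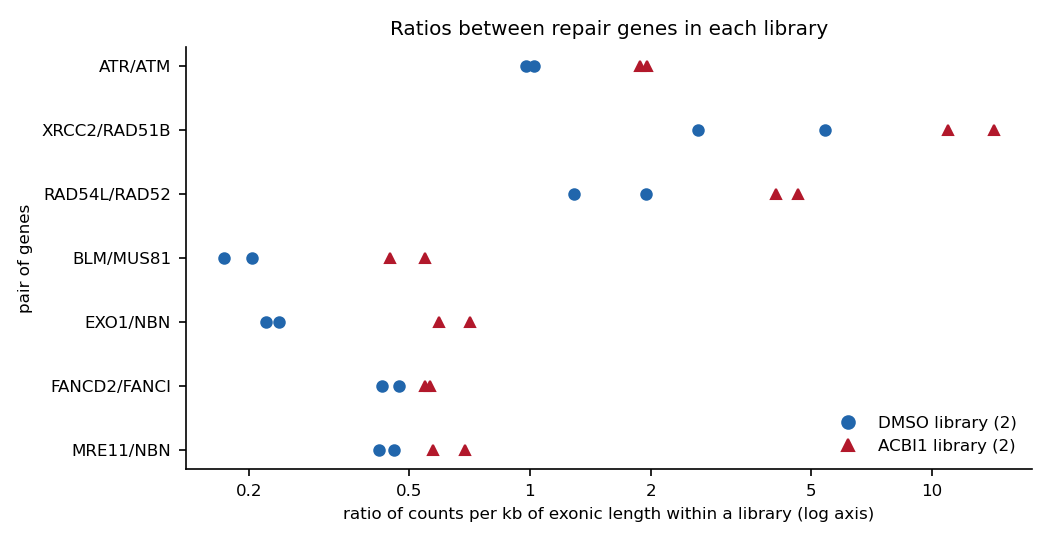
Ratio of counts per kilobase of exonic length (x axis, log scale) between 7 pairs of repair genes within each DMSO library (blue circles) and each ACBI1 library (red triangles). The triangles lie to the right of the circles in each pair, by 1.23 times in the mean for FANCD2/FANCI and 3.13 times for XRCC2/RAD51B.

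Per kilobase of exonic length, the level of the members with DMSO ranged from 0.295 CPM for RAD54B to 12.0 CPM for UBE2T, followed by PMS2 (11.5) and NBN (11.1). With ACBI1 the highest level was that of FANCL, at 18.6 CPM per kilobase, and FANCA moved in rank from 10 to 4 and XRCC2 from 24 to 9. ATM moved in rank from 16 to 30. BRCA2 was among the low members on this scale, at 0.888 CPM per kilobase with DMSO and 2.19 with ACBI1. The lengths come from GENCODE release 29 and count every annotated exon.

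**Figure D4:**
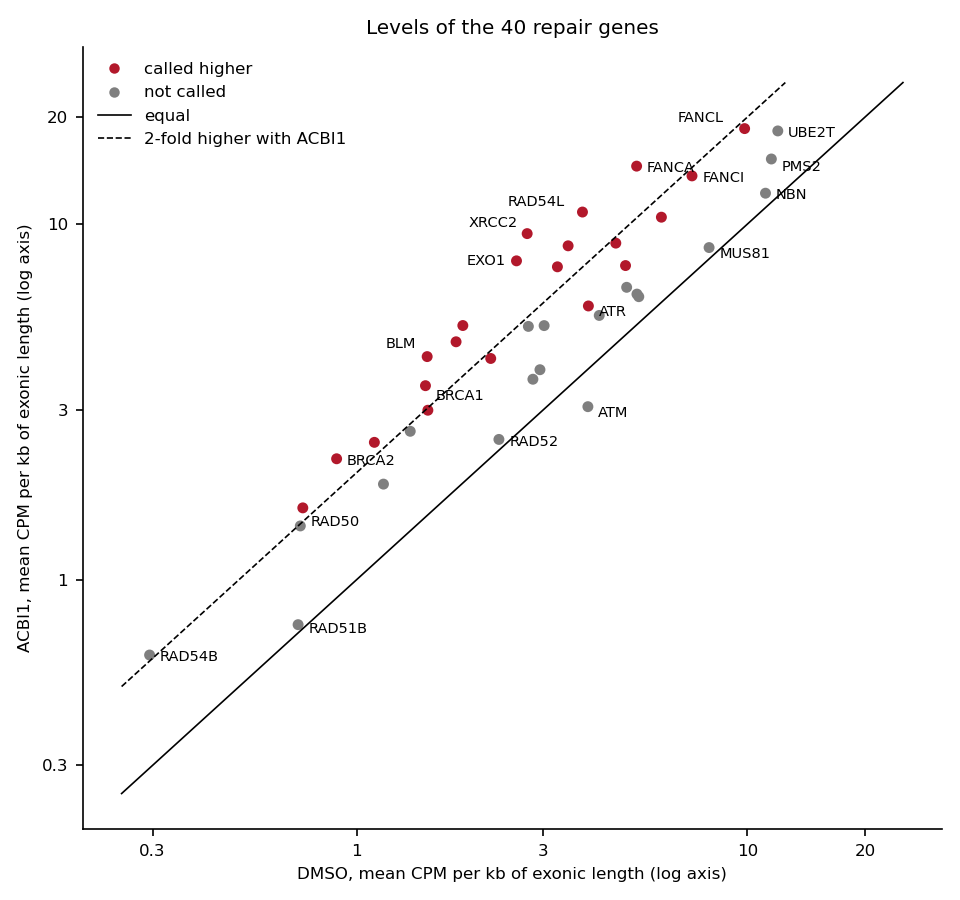
Mean CPM per kilobase of exonic length with DMSO (x axis) and with ACBI1 (y axis), both on log scales, for the 40 genes; red marks genes called higher, the solid line equal levels and the dashed line 2-fold higher levels with ACBI1. Most red points lie near or above the dashed line, and ATM lies below the solid line.

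Several members share their start region with a gene on the opposite strand, which gives a local comparison. A tested neighbour with a RefSeq start on the other strand within 1000 bases was found for 11 members. Of the 11 neighbours, edgeR, DESeq2 and limma-voom each called 0, where edgeR called 17.4% of all tested genes. Among only 11 genes, 0 is not far below that share. CRTC3-AS1, beside BLM, was at a mean of 0.205 CPM with DMSO and 0.160 CPM with ACBI1 (SE of its log2 change 0.59). SNHG31, beside BARD1, was at 1.00 and 1.74 CPM (SE 0.36). MRPL27, beside EME1, was the 1 neighbour with an unadjusted edgeR p under 0.05. The log2 changes of the neighbours ran from -0.42 to 0.80 with a median of -0.19, beside a median of 0.91 for the 11 members. The starts of BRCA1 and NBR2, a non-coding gene, are 193 bases apart, and NBR2 had a log2 change of -0.30 (adjusted p 0.408) against 1.23 for BRCA1. HSCB, 219 bases from CHEK2, had one of -0.07 (adjusted p 0.848) against 1.32. ANKRD49, 140 bases from MRE11, had one of -0.42 (adjusted p 0.312) against 0.65, and NPAT, 429 bases from ATM, one of -0.19 (adjusted p 0.440) against -0.35. The neighbours with positive changes were SNHG31 (0.80, adjusted p 0.184) beside BARD1 (0.93), MRPL27 (0.44, adjusted p 0.130) beside EME1 (0.91) and DCTN5 (0.15, adjusted p 0.541) beside PALB2 (0.44). The difference in change between a member and its neighbour was not tested.

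Other repair genes were read from lists beside the members. Among 32 further recombination and Fanconi genes, 8 (25%) were called, each higher, with a median log2 change of 0.39. They were led by CLSPN (log2 change 1.81, adjusted p 0.00636), the adaptor through which ATR activates CHEK1, CENPX (log2 change 1.43, adjusted p 0.00673), a partner of FANCM, and MCM8 (log2 change 1.14, adjusted p 0.0268), a helicase subunit. The list of 7 further mismatch repair genes includes replication enzymes that fill the gap. It had 3 called (42.9%), each higher, and a median of 0.70, where 6.75% of all tested genes were called higher. These were LIG1 (log2 change 1.62, adjusted p 0.00763), which seals nicks, and the polymerase delta subunits POLD1 (log2 change 1.12, adjusted p 0.0108) and POLD3 (log2 change 0.76, adjusted p 0.0421). All 3 are such replication enzymes. Not called were MSH3 (log2 change 0.04), PMS1 (0.50), MLH3 (0.57) and the delta subunit POLD2 (0.70).

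Repair pathways other than these had medians of 0.13 to 0.36. In non-homologous end joining 2 of 16 genes were called, PRKDC (log2 change 1.09, adjusted p 0.0125) and SHLD2 (log2 change 0.74, adjusted p 0.0264), both higher, with a median of 0.16. In nucleotide excision repair 1 of 18 was called, UVSSA (log2 change 0.75, adjusted p 0.0431), with a median of 0.13. In base excision repair 3 of 19 were called higher and 1 lower, with a median of 0.36. The glycosylases UNG (log2 change 1.97, adjusted p 0.00259) and NEIL2 (log2 change 1.96, adjusted p 0.00665) were among those that rose. NEIL1, a relative of NEIL2, fell (log2 change -1.73, adjusted p 0.0394), from low counts of 130 and 181 with DMSO to 46 and 48 with ACBI1. Against the 6.75% of tested genes called higher, the share was 12.5% in end joining, 5.56% in nucleotide excision repair and 15.8% in base excision repair. In base excision repair 5.26% were called lower, beside 10.6% of tested genes. The difference between these lists and the 40 members was not tested.

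**Figure D5:**
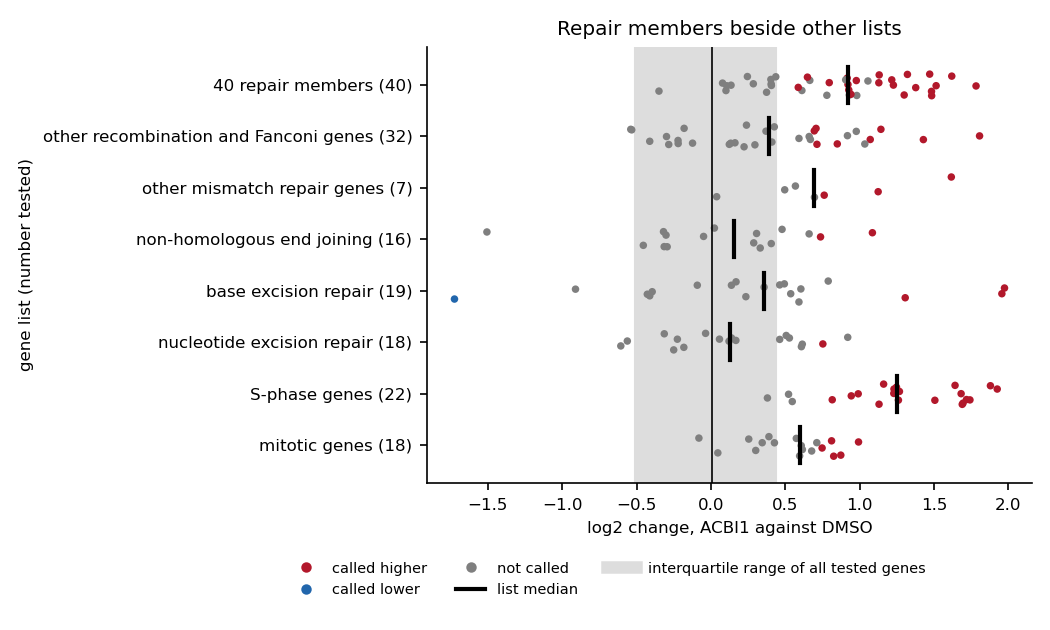
Log2 change (x axis, ACBI1 against DMSO) of each tested gene in the 40 members and 7 other lists (y axis, with the number tested; points are spread vertically for display); black bars are list medians and the grey band is the interquartile range of all tested genes. The members' median of 0.92 lies between those of mitotic genes (0.60) and S-phase genes (1.25).

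With 1 library left out, the lone library of a group is assumed to vary like the pair of the other group. The number of members called higher was then 22 without DMSO replicate 1, 13 without DMSO replicate 2, 11 without ACBI1 replicate 1 and 10 without ACBI1 replicate 2. Over all genes, 1651, 858, 415 and 525 were called higher in these fits. XRCC2, RAD54L, FANCD2, BLM, EXO1 and DNA2 were called in all 4. Without DMSO replicate 1 the lost calls were ATR and RMI2 (log2 changes 0.64 to 0.87, adjusted p 0.0659 to 0.0708). Without DMSO replicate 2 they were BRIP1, RAD51D, FANCG, FANCL, RMI2, MRE11, ATR and POLQ (log2 changes 0.51 to 0.99, adjusted p 0.0541 to 0.193). Without ACBI1 replicate 1 they were BRCA1, BRIP1, RAD51D, FANCA, FANCG, FANCL, RMI2, MRE11, ATR and CHEK1 (log2 changes 0.62 to 1.42, adjusted p 0.0617 to 0.227). Without ACBI1 replicate 2 they were BRCA1, BRCA2, BRIP1, XRCC3, FANCG, FANCI, RMI2, MRE11, ATR, CHEK2 and POLQ (log2 changes 0.50 to 1.17, adjusted p 0.0513 to 0.241). No member's fitted change moved by more than 1.5-fold in these 4 fits. On all 4 libraries, limma-voom did not call RAD51D, ATR and POLQ (adjusted p 0.0503 to 0.0594).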

How the data were processed

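RNA-seq was deposited as 4 files of whole-number read counts per gene, 1 per library, in the layout of htseq-count. TopHat2 2.1.1, HTSeq 0.11.0 and hg38 are named in the submitters' processing notes; annotation, strand setting and any selection of RNA are not given in the sources used here. Lines for unassigned reads were kept out of sizes and tests (84.6% to 86.1% of listed reads were in genes). Group and replicate came from the sample titles.

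Genes kept by filterByExpr (minimum count 10, minimum total 15) received TMM factors and entered edgeR 4.0.16 (R 4.3.3; glmQLFit, glmQLFTest, two-sided) with a model on treatment alone, with Benjamini-Hochberg adjustment over 19159 genes. Each SE was derived from the log2 change and its F statistic. DESeq2 1.42.0 and limma 3.58.1 (voom), other scalings and filters, GC and length offsets (95.8% of tested genes matched to GENCODE 29), a block, a threshold of 0.01 and each library left out were alternatives. In simulated counts with 200 genes changed by a log2 of 1, edgeR recovered 15.3% with 7 false calls, and by a log2 of 2, 68.5% with 14. The simulated share of changed genes was below the 17.4% of tested genes called in the data, so these recovery rates need not hold there.

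Members and lists were chosen with earlier results of these data known. All members are named; values per library are given for called members, ATM and MSH6 and, added after seeing values, some others. Up to 3 called genes are named per other list. For genes with several RefSeq starts, the start with most GENCODE transcripts beginning within 100 bases was used. The start used could still have few or no such transcripts, as for RAD51B (0 of 5). For 5 members the table held no sequence.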

Additional observations from a re-analysis of the deposited data

How the results depend on the processing

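The 39 positive and 1 negative changes of the members kept their counts in each fit on all 4 libraries, save that RAD54B was not tested with a mean of at least 5 CPM. Members called higher numbered 19 to 27, beside 21, under the other scalings, filters, tests and the GC and length offset. A threshold of 0.01 left 1 member, and 172 genes higher and 611 lower over all genes. Keeping every gene with a count gave 2202 higher and 3316 lower, beside 1294 and 2037. The replicate numbers are shared by the groups, but the labels tie them to nothing. Deviations of same-numbered libraries from their group means correlated at 0.54 across genes, which are not independent, in 2 pairs. With the replicate block, 32 members were higher and 1, ATM, lower (adjusted p 0.0422), with 3708 and 4201 over all genes, and SMARCA4 was called higher (adjusted p 0.00248) and SMARCA2 lower (adjusted p 0.0394). The replicate block with the GC and length offset gave 32 and 1, with 3637 and 4025. With 1 library left out, members called higher numbered 10 to 22, members called lower 0 in each, all genes called higher 415 to 1651 and lower 964 to 2641, and the members' median log2 change ran from 0.74 to 1.02. The changes of 4 uncalled genes changed sign there: RAD51B (-0.088 to 0.27), MUS81 (-0.031 to 0.23), NBN (-0.054 to 0.35) and PBRM1 (-0.041 to 0.25). The cause was not tested; such fits hold fewer samples. Each member had at least 107 counts in every library, and 2 libraries per group limit the precision.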
